A study of Mus musculus with 12 samples.

Results

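The integrated stress response of mouse embryonic fibroblasts (MEFs) was followed here through 10 genes: *Atf4*, its stress targets *Ddit3*, *Chac1*, *Trib3* and *Sesn2*, the asparagine synthetase gene *Asns*, and the serine and one-carbon enzyme genes *Phgdh*, *Psat1*, *Shmt2* and *Mthfd2*. They were picked by name from the 20661 genes of the count tables, not by a threshold in the data, but with earlier results of these data known. RNA abundance (RNAseq) and ribosome footprints (ribosome profiling) were measured in 3 groups with 2 replicates each, which gave 12 libraries. WT-shSCR and WT-shARF were wildtype MEFs, of strain C57BL/6J by their labels, that carried a lentiviral scrambled shRNA or a lentiviral shRNA against *Arf*. *Arf*-/--shSCR MEFs came from the B6.129X1-Cdkn2atm1Cjs/KaiJ strain, in which the exon specific to *Arf* is deleted in the germline of every cell type, and carried the scrambled shRNA. All cells had been selected for the vector and were labelled passage 4, and strain and genotype cannot be told apart in the *Arf*-/- comparison.

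Cells that run short of amino acids, or whose endoplasmic reticulum fills with unfolded proteins, phosphorylate the initiation factor eIF2. General translation then falls, while the *Atf4* mRNA, whose upstream open reading frames normally divert ribosomes, is translated more. The ATF4 protein turns on genes for amino acid synthesis and transport, and under stronger stress genes that promote cell death, such as *Ddit3* (CHOP), *Chac1* and *Trib3*. ATF4 is also active in growing cells without overt stress, where it follows mTORC1. *Sesn2* is in addition induced by p53, which ARF stabilises.

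ATF4 binds a C/EBP-ATF response element whose core letters are TGATGNAA. This core, on either strand, was looked for in the RefSeq promoter windows (GRCm38.p6) from 250 bases before to 50 after each start site, and all 10 genes matched at least 1 window. The core stood in the windows of *Asns*, *Chac1* and *Trib3*, that is 3 of 10 genes, and in 3.97% of the 32851 windows of all genes. The sequences are shown because these 3 genes are the members with the canonical ATF4 core beside the start. The first is chr6:7693214-7693243 on the minus strand, the second chr2:119351038-119351067 on the plus strand and the third chr2:152344028-152344057 on the minus strand. Capitals mark the core, which is read on the opposite strand in *Chac1* and *Trib3*.
Asns: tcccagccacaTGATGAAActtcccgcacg
Chac1: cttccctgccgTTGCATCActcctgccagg
Trib3: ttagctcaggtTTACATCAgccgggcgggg

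The 4 serine and one-carbon enzyme genes, whose footprints rose together as described later, held no match to this core in their windows, which says only that these letters are not there. Their last 100 bases before the RefSeq start are shown for comparison, with the CCAAT letters (either strand) in capitals. CCAAT stood in the windows of 7 of the 10 genes and in 37.4% of all windows, and the E-box letters CACGTG in those of 0 of the 10 genes and in 7.15% of all windows. On GRCm38.p6 and the minus strand, these are chr3:98339970-98340069, chr19:15925060-15925159 (the first of 2 starts of *Psat1*), chr10:127522445-127522544 and chr6:83317605-83317704.
Phgdh: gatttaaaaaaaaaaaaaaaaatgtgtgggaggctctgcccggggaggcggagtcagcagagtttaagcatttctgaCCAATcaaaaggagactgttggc
Psat1: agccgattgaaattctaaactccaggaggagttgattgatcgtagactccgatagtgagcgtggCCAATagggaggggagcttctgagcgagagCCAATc
Shmt2: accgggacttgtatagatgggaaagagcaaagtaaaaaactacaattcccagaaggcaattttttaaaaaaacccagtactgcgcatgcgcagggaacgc
Mthfd2: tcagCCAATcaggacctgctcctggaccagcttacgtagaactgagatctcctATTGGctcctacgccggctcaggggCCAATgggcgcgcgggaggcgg

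The values are raw read counts on coding sequences, given as CPM, that is, counts scaled to a common library size with TMM factors over the 6 libraries of an assay. Totals on genes ran from 1578627 to 3989908 in RNAseq and from 2544319 to 5157572 in ribosome profiling. *Cdkn2a*, the gene that encodes ARF and INK4A, was at 44.8 and 41.4 CPM of RNA in WT-shSCR, 637.6 and 677.9 CPM in those labelled WT-shARF and 27.7 and 32.4 CPM in *Arf*-/--shSCR. The RNA of the whole gene thus went against the knockdown label (log2 fold change 3.91, adjusted p = 5.57e-18). Counts per gene cannot separate the ARF exon from the exons shared with INK4A, so they check neither the knockdown of ARF nor the knockout, and the ARF protein is not measured in these counts. The paper reports both from an immunoblot of MEFs, and states that this shRNA does not alter INK4A. Because the counts do not check the knockdown, WT-shARF stands in what follows for the libraries with that label. The 10 fibroblast markers all had reads in every library and summed to 17460 and 16350 CPM of RNA in *Arf*-/--shSCR against 21350 to 24470 CPM in the wildtype libraries, and to 37350 and 37400 against 46020 to 53390 CPM in footprints. Single markers went both ways. Against WT-shSCR, 2 of 9 tested were called higher and 1 lower in *Arf*-/--shSCR RNA, with *Pdgfra* at 5.2-fold and *Fn1* at 0.356-fold. In its footprints 4 of 10 were called higher and 3 lower. Over all genes the shares were 3.94% and 3.99% in RNA, and 9.57% and 8.95% in footprints. The 10 macrophage markers summed to 510.2 and 513 CPM of RNA in WT-shSCR, 270.2 and 186.6 in WT-shARF and 55.7 and 78.7 in *Arf*-/--shSCR. All 10 had reads in every library. Fewer cells of a type and less RNA per cell cannot be told apart in such bulk samples, and the part of this difference in the results that follow was not tested. The 8 epithelial and mesothelial markers summed to between 56.3 and 93.7 CPM in the wildtype RNA libraries and to 158.7 and 182.1 CPM in *Arf*-/--shSCR. Single markers differed by more than this sum. Against WT-shSCR, 4 of 6 tested were called higher and 0 lower in *Arf*-/--shSCR RNA, from 1.26-fold for *Krt19*, not called, to 23.1-fold for *Krt8*. In its footprints 5 of 6 were called higher and 0 lower. The part of this difference in the results that follow was not tested either.

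Changes were tested with edgeR's quasi-likelihood F test over all genes that passed a filter on low counts, with Benjamini-Hochberg adjusted p under 0.05 as the threshold, and each fold change is given on the log2 scale with its standard error (SE). Translation efficiency (TE), the footprints of a gene relative to its RNA, was tested as the interaction of assay and condition. Both *Arf* comparisons share the WT-shSCR libraries, so *Arf*-/--shSCR was also compared directly with WT-shARF, which tests whether the 2 changes differ. All 10 members passed the filter in each of the 9 fits. Each fit was repeated without 1 replicate of a group at a time. In RNA and footprints this removes 1 library, and in TE 1 library of each assay. Some of these repeats called few genes of any kind, namely 0 of 11391 and 0 of 11340 for *Arf*-/--shSCR footprints without WT-shSCR replicate 1 or 2. For the direct comparison the numbers were 0 of 11365 and 1 of 11301 in footprints, and 35 of 11364 and 6 of 11115 in RNA, without WT-shARF replicate 1 or 2. At an unadjusted p under 0.05 the 3 fits with 0 calls had 2467, 2553 and 1453 genes. A call missed in the 3 fits with 0 calls says nothing about the gene itself. In the rest, where few genes passed, a missed call says little about it. All 6 fits are called uninformative in what follows.

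**Figure D1:**
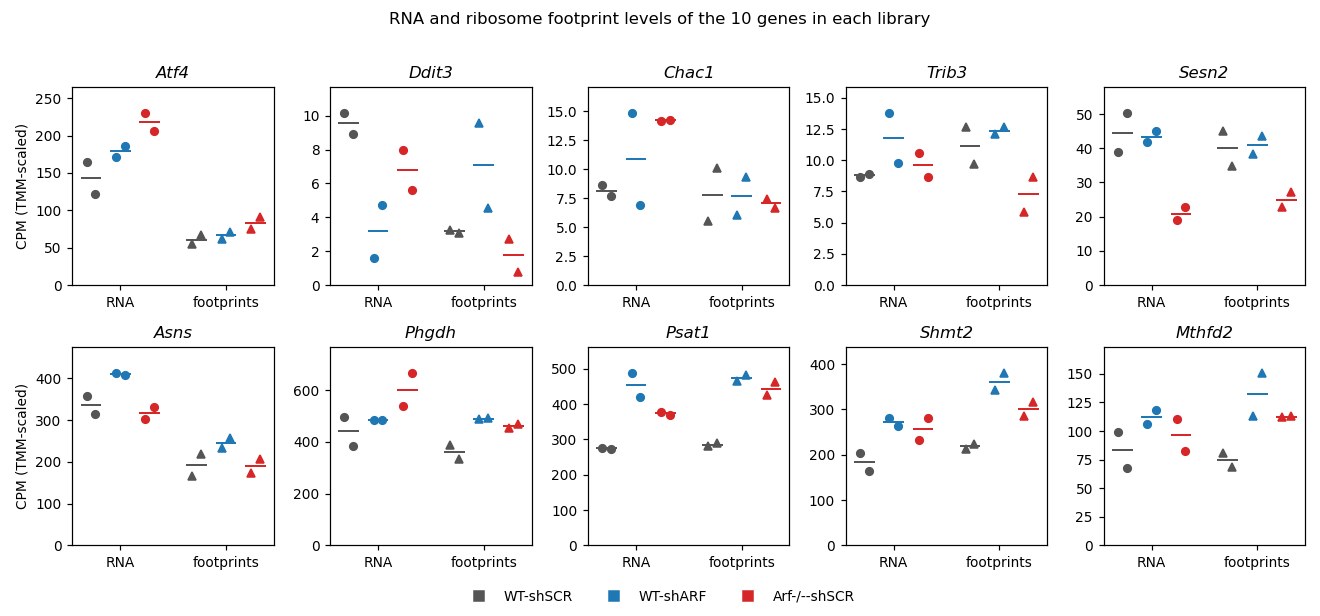
RNA (circles) and footprint (triangles) levels of the 10 genes in CPM, 1 point for each library and a line for the mean of the 2 replicates of a group. Footprints of *Phgdh*, *Psat1*, *Shmt2* and *Mthfd2* lie above both WT-shSCR libraries in all 4 libraries of the other groups, and *Sesn2* is lowest in *Arf*-/--shSCR in both assays. The share of all genes whose libraries lie apart in these ways was not counted.

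*Atf4* RNA was higher in *Arf*-/--shSCR, while its ratio of footprints to RNA was low among genes in every group. The gene lies at chr15:80255184-80257541 on the plus strand (GRCm38, GENCODE M21). Only reads on its coding sequence were counted, by position and not by reading frame. Ribosomes upstream of that sequence are not in these values, whereas those of an upstream frame that runs into it would be. Its RNA was at 165 and 122 CPM in WT-shSCR, 171 and 187 CPM in WT-shARF and 230.4 and 207 CPM in *Arf*-/--shSCR. The groups do not overlap, and they are ordered WT-shSCR, WT-shARF, *Arf*-/--shSCR. The increase in *Arf*-/--shSCR was 1.5-fold (log2 0.58, SE 0.17, adjusted p = 0.0396), against 1.22-fold in WT-shARF (log2 0.29, SE 0.16, adjusted p = 0.291). The 2 changes were not separated by the direct comparison (log2 0.28, SE 0.14, adjusted p = 0.329). Of all genes tested, 3.94% were called higher in *Arf*-/--shSCR RNA and 3.99% lower, so that 1 member called in each direction of 10 is near what all genes show. The call on *Atf4* was lost with DESeq2 (adjusted p = 0.109). It was also lost without WT-shSCR replicate 1 (log2 0.81, adjusted p = 0.0868), WT-shSCR replicate 2 (log2 0.41, adjusted p = 0.373) or *Arf*-/--shSCR replicate 1 (log2 0.50, adjusted p = 0.153).

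Footprints on the *Atf4* coding sequence were at 54.9 and 66.6 CPM in WT-shSCR, 62.2 and 70.5 CPM in WT-shARF and 75.2 and 91.4 CPM in *Arf*-/--shSCR. The first pair of groups overlaps, whereas both *Arf*-/--shSCR libraries are above all others. Neither change passed the threshold (log2 0.42, SE 0.17, adjusted p = 0.0769 in *Arf*-/--shSCR and log2 0.12, SE 0.19, adjusted p = 0.758 in WT-shARF). The log2 ratio of footprints to RNA, each in CPM, was −1.24 in WT-shSCR, −1.43 in WT-shARF and −1.39 in *Arf*-/--shSCR. Among the 8223 genes with at least 10 counts in every library, only 7.58%, 5.69% and 6.6% had a lower ratio in these groups. *Atf4* thus sat near the bottom of the genes in footprints per RNA in all 3 groups. Its TE changed by −0.19 (SE 0.24) in *Arf*-/--shSCR and by −0.15 (SE 0.23) in WT-shARF on the log2 scale, with adjusted p of 0.927 and 0.942. The intervals of 2 SE ran from −0.67 to 0.29 and from −0.62 to 0.32, and the data do not separate the values within them.

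**Figure D2:**
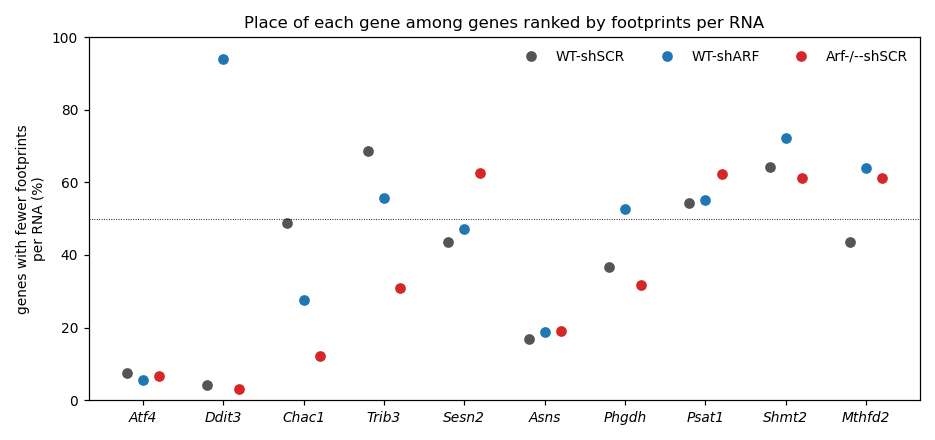
Percent of 8223 genes with a lower ratio of footprints to RNA than each member, by group; the dotted line is the median gene. *Atf4* lies between 5.69% and 7.58% and *Asns* between 16.9% and 19%, while *Ddit3*, with few reads, moves from 2.99% to 94.1%.

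The death-linked targets were weakly expressed and gave no call in RNA, footprints or TE. *Ddit3* encodes the transcription factor CHOP, *Chac1* an enzyme that degrades glutathione, and *Trib3* a pseudokinase that restrains ATF4 and AKT. Together they had 3 to 41 reads per library in RNAseq and 4 to 61 in ribosome profiling. Per kilobase of coding sequence, their RNA was between 6.3 and 21.3 CPM in the group means, compared with 137 to 209 CPM for *Atf4* and 188 to 244 CPM for *Asns*.

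*Ddit3* RNA was at 10.2 and 8.92 CPM in WT-shSCR, 1.59 and 4.75 CPM in WT-shARF and 8.01 and 5.62 CPM in *Arf*-/--shSCR. Its footprints were at 3.25 and 3.10 CPM, 9.59 and 4.58 CPM, and 2.75 and 0.788 CPM in the same order. RNA was therefore lowest, and footprints highest, in WT-shARF, in opposite directions from WT-shSCR. The TE difference was large but imprecise, at log2 2.58 (SE 0.92, unadjusted p = 0.0075, adjusted p = 0.512) in WT-shARF and −2.95 (SE 0.98, unadjusted p = 0.00564, adjusted p = 0.421) in *Arf*-/--shSCR relative to WT-shARF. It rests on 3 and 20 RNA reads in the WT-shARF libraries, and the symbol has 2 gene identifiers in the annotation.

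*Chac1* RNA was at 8.67 and 7.65 CPM in WT-shSCR, 14.9 and 6.89 CPM in WT-shARF and 14.2 and 14.3 CPM in *Arf*-/--shSCR. The *Arf*-/--shSCR libraries were above WT-shSCR, with a log2 fold change of 0.77 (SE 0.41, adjusted p = 0.279), and the WT-shARF libraries lay on both sides of it. *Chac1* footprints, between 5.52 and 10.1 CPM, overlapped in all 3 groups. *Trib3* RNA lay between 8.65 and 13.8 CPM. Its footprints were at 12.7 and 9.68 CPM in WT-shSCR, 12.1 and 12.7 CPM in WT-shARF and 5.89 and 8.66 CPM in *Arf*-/--shSCR, whose libraries were below all wildtype libraries. The log2 changes in *Arf*-/--shSCR footprints were −0.66 (SE 0.45) from WT-shSCR and −0.80 (SE 0.39) from WT-shARF. Adjusted p ran from 0.245 to 0.915 in the 6 tests of *Trib3* RNA and footprints.

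*Sesn2* was the member called lower in *Arf*-/--shSCR than in WT-shSCR. It encodes sestrin 2, a stress-induced inhibitor of mTORC1, and lies at chr4:132492032-132510501 on the minus strand. Its RNA was at 38.8 and 50.3 CPM in WT-shSCR, 41.9 and 44.9 CPM in WT-shARF and 18.9 and 22.9 CPM in *Arf*-/--shSCR. Footprints were at 45.1 and 34.9 CPM, 38.4 and 43.5 CPM, and 22.8 and 27.2 CPM in the same order. In both assays the *Arf*-/--shSCR libraries were below all 4 wildtype libraries, whose groups overlapped. RNA was 0.468-fold of WT-shSCR (SE of log2 0.27, adjusted p = 0.0157) and footprints 0.608-fold (SE of log2 0.23, adjusted p = 0.0269). In WT-shARF the log2 changes were −0.03 (SE 0.22) for RNA and 0.02 (SE 0.22) for footprints, with intervals of 2 SE from −0.47 to 0.41 and from −0.42 to 0.47.

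The difference between the 2 *Sesn2* changes passed the threshold itself, at log2 −1.07 for RNA (SE 0.24, adjusted p = 0.0298) and −0.75 for footprints (SE 0.20, adjusted p = 0.0261). In these direct comparisons 1.38% of genes were called higher in *Arf*-/--shSCR RNA and 1.19% lower, and 3.93% and 4.3% in footprints. The 4 *Sesn2* calls were lost with DESeq2, with adjusted p of 0.0685 and 0.108 against WT-shSCR and 0.0693 and 0.0758 against WT-shARF for RNA and footprints, and the RNA call against WT-shARF with the replicate number as a block (adjusted p = 0.0521). Without 1 library the RNA change from WT-shSCR was −0.96 (adjusted p = 0.0599) without *Arf*-/--shSCR replicate 1, −1.29 (adjusted p = 0.065) without WT-shSCR replicate 1 and −0.89 (adjusted p = 0.193) without WT-shSCR replicate 2, each short of the threshold. The footprint change missed it without *Arf*-/--shSCR replicate 1 or 2 (log2 −0.59 and −0.84), and was −0.51 and −0.88 in the uninformative fits without WT-shSCR replicate 1 or 2. The direct comparison missed it in footprints without *Arf*-/--shSCR replicate 1 (log2 −0.63). In the uninformative fits without WT-shARF replicate 1 or 2 it was −1.09 and −1.03 in RNA and −0.82 and −0.66 in footprints. The direction held throughout.

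Of 8 genes that p53 is known to activate, 3 fell and 0 rose in *Arf*-/--shSCR RNA, with *Cdkn1a*, the cell cycle inhibitor p21, at −2.18, *Mdm2*, the ubiquitin ligase of p53, at −1.16 and *Ccng1* at −0.91 on the log2 scale. In *Arf*-/--shSCR footprints 5 of 8 fell. In WT-shARF 2 of 8 fell in RNA, *Mdm2* by 0.74 and *Cdkn1a* by 0.73, the latter not called by DESeq2 (adjusted p = 0.0793), and 4 of 8 in footprints. Of all genes tested, 3.99% and 8.95% were called lower in *Arf*-/--shSCR RNA and footprints, and 4.17% and 5.5% in those of WT-shARF. *Cdkn1a* RNA was lower in *Arf*-/--shSCR than in WT-shARF as well (log2 −1.46, SE 0.25, adjusted p = 0.00664). *Sesn3*, another sestrin gene, fell in *Arf*-/--shSCR by 1.72 in RNA (adjusted p = 0.0342) and by 1.11 in footprints (adjusted p = 0.0451). Both *Sesn3* calls were lost with DESeq2 (adjusted p = 0.153 and 0.127) and in 3 of 4 fits without 1 library each, 2 of them uninformative in footprints. *Sesn1* footprints in *Arf*-/--shSCR were at log2 0.50 (SE 0.65, adjusted p = 0.66). A link between these genes and *Sesn2* was not tested. Median log2 changes of the p53 list were −0.63 in *Arf*-/--shSCR RNA and −0.18 in WT-shARF RNA, against −0.004 and −0.001 over all genes tested.

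*Asns*, which makes asparagine from aspartate and glutamine and is a standard reporter of ATF4 activity, had fewer footprints in *Arf*-/--shSCR than in WT-shARF. The gene lies at chr6:7675169-7693254 on the minus strand and holds the ATF4 core shown earlier. Footprints were at 166.6 and 218 CPM in WT-shSCR, 232 and 257.8 CPM in WT-shARF and 173.7 and 207.9 CPM in *Arf*-/--shSCR. The *Arf*-/--shSCR libraries fell within the range of WT-shSCR, and both WT-shARF libraries were above all others. *Arf*-/--shSCR was 0.761-fold of WT-shARF (log2 −0.39, SE 0.11, adjusted p = 0.0258). Against WT-shSCR the log2 changes were 0.34 in WT-shARF (SE 0.12, adjusted p = 0.0561) and −0.04 in *Arf*-/--shSCR (SE 0.13, adjusted p = 0.866).

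RNA of *Asns* had the same order of groups, with 356.8 and 315.4 CPM in WT-shSCR, 412.5 and 407.9 CPM in WT-shARF and 301.7 and 331.7 CPM in *Arf*-/--shSCR. The direct comparison gave a log2 difference of −0.38 (SE 0.13, adjusted p = 0.135). The footprint difference held with DESeq2 and missed the threshold without *Arf*-/--shSCR replicate 1 (log2 −0.27, adjusted p = 0.214), with log2 −0.45 and −0.33 in the uninformative fits without WT-shARF replicate 1 or 2. The WT-shARF increase passed under 4 alternatives, among them no filter on low counts (adjusted p = 0.0335) and the replicate block (adjusted p = 0.0154). Like *Atf4*, *Asns* had few footprints for its RNA, with 16.9% to 19% of genes lower.

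Footprints of the 4 serine and one-carbon enzyme genes rose in both groups. PHGDH and PSAT1 carry out the first steps of serine synthesis from a glycolytic intermediate, SHMT2 splits serine in mitochondria to yield glycine and a one-carbon unit, and MTHFD2 oxidises that unit for use in purine synthesis. They were the 4 members called higher in the footprints of *Arf*-/--shSCR and the 4 called higher in those of WT-shARF. Over all genes 9.57% were called higher and 8.95% lower in *Arf*-/--shSCR footprints, and 5.63% and 5.5% in WT-shARF footprints. The medians of the 10 members were 0.14 and 0.39 on the log2 scale, against −0.001 and −0.003 over all genes tested. Since the list was drawn up with earlier results of these data known, these shares describe the list and are no independent evidence.

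*Psat1* (chr19:15904678-15947337, minus strand) had the lowest adjusted p of the 4 in the footprints of both groups. Its footprints were at 281.2 and 288.9 CPM in WT-shSCR, 466.2 and 483.3 CPM in WT-shARF and 425.2 and 462.1 CPM in *Arf*-/--shSCR. RNA was at 276.6 and 274 CPM, 487.9 and 421.4 CPM, and 378.2 and 369.7 CPM. The 3 groups are apart in RNA, and in footprints WT-shSCR is below the rest. Footprints rose 1.65-fold in WT-shARF (log2 0.73, SE 0.09, adjusted p = 6.6e-07) and 1.52-fold in *Arf*-/--shSCR (log2 0.60, SE 0.10, adjusted p = 2.14e-05). RNA rose 1.63-fold in WT-shARF (adjusted p = 0.000912), and its change in *Arf*-/--shSCR was 1.34-fold (log2 0.43, SE 0.14, adjusted p = 0.0782). In WT-shARF RNA 3.11% of all genes were called higher and 4.17% lower, and 2 of the 10 members were called higher and 0 lower.

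*Shmt2* (chr10:127517123-127522444, minus strand) was the other member called in WT-shARF RNA, at 202.7 and 163.1 CPM in WT-shSCR, 281.9 and 264.1 CPM in WT-shARF and 232.9 and 282 CPM in *Arf*-/--shSCR. Footprints were at 213 and 223.8 CPM, 341.8 and 379.9 CPM, and 286.3 and 316 CPM. In both assays WT-shSCR was lowest, and in footprints the 3 groups did not overlap. The WT-shARF increase was 1.47-fold in RNA (log2 0.55, SE 0.14, adjusted p = 0.0149) and 1.64-fold in footprints (adjusted p = 3.57e-06). In *Arf*-/--shSCR footprints rose 1.35-fold (log2 0.43, SE 0.11, adjusted p = 0.00438), and RNA was 1.39-fold (adjusted p = 0.0854). The footprint increase was smaller in *Arf*-/--shSCR than in WT-shARF (log2 −0.29, SE 0.09, adjusted p = 0.045).

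*Mthfd2* (chr6:83305691-83325908, minus strand) had footprints at 81.2 and 68.5 CPM in WT-shSCR, 113.4 and 150.6 CPM in WT-shARF and 111.9 and 113 CPM in *Arf*-/--shSCR. Its RNA was at 99.5 and 67.5 CPM, 106.2 and 118.4 CPM, and 110.3 and 82.2 CPM, with overlap between WT-shSCR and *Arf*-/--shSCR. Footprints rose 1.76-fold in WT-shARF (log2 0.81, SE 0.16, adjusted p = 0.000438) and 1.46-fold in *Arf*-/--shSCR (log2 0.55, SE 0.15, adjusted p = 0.00783), while RNA gave no call (log2 0.39, adjusted p = 0.202 and log2 0.18, adjusted p = 0.686). TE was at log2 0.43 (SE 0.25) and 0.34 (SE 0.27), neither past the threshold.

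*Phgdh* (chr3:98313170-98339990, minus strand) showed the smallest footprint increase of these 4, from 387 and 335 CPM in WT-shSCR to 487.5 and 491.9 CPM in WT-shARF and 454.3 and 470.6 CPM in *Arf*-/--shSCR. That was 1.35-fold (log2 0.43, SE 0.09, adjusted p = 0.00134) and 1.25-fold (log2 0.32, SE 0.10, adjusted p = 0.0158). RNA was at 498.5 and 385.5 CPM, 483.6 and 483.4 CPM, and 538.3 and 666.4 CPM, so the footprint and RNA orders of WT-shARF and *Arf*-/--shSCR were opposite. The TE difference between these 2 groups was log2 −0.42 (SE 0.15, unadjusted p = 0.00933, adjusted p = 0.466). *Phgdh* has 17 annotated processed pseudogenes that match it at 90% identity or more over at least 100 bases, and *Psat1* and *Shmt2* have 1 each, so reads shared with them could be missing from its counts or placed elsewhere.

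All 8 footprint increases of these enzymes were also called by DESeq2. In WT-shARF they held without any 1 library except that *Mthfd2* missed the threshold without WT-shARF replicate 2 (log2 0.60, adjusted p = 0.0715). In *Arf*-/--shSCR the changes were log2 0.40 to 0.69 and 0.23 to 0.63 in the uninformative fits without WT-shSCR replicate 1 or 2. Without *Arf*-/--shSCR replicate 1 *Psat1* and *Shmt2* still passed, and without *Arf*-/--shSCR replicate 2 *Psat1* alone did. For RNA in WT-shARF, *Psat1* missed it without WT-shARF replicate 1 (log2 0.59, adjusted p = 0.053). *Shmt2* RNA missed it with DESeq2 (adjusted p = 0.0504) and without WT-shARF replicate 1 (log2 0.50), WT-shARF replicate 2 (log2 0.62) or WT-shSCR replicate 2 (log2 0.42). The *Shmt2* footprint difference between *Arf*-/--shSCR and WT-shARF missed it with DESeq2 (adjusted p = 0.0546), with all 3 conditions in one fit (log2 −0.30, adjusted p = 0.0555) and without *Arf*-/--shSCR replicate 1 (log2 −0.23). It was −0.35 and −0.23 in the uninformative fits without WT-shARF replicate 1 or 2.

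**Figure D3:**
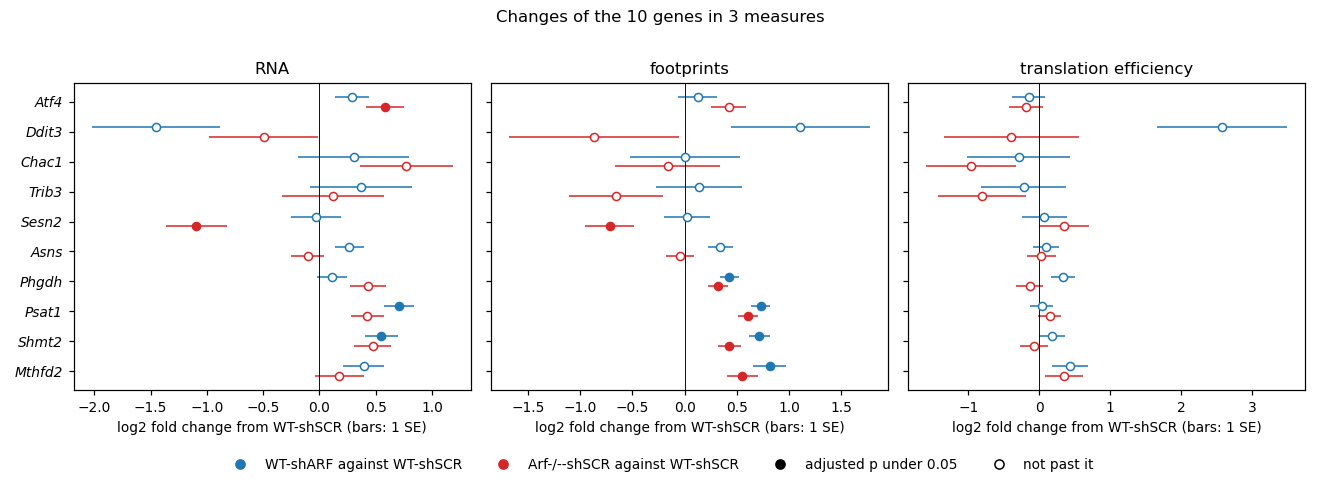
Log2 fold changes of the 10 genes from WT-shSCR in RNA, footprints and TE, with bars of 1 SE; filled points have an adjusted p under 0.05. The 4 enzyme genes are filled to the right in the footprint panel for both groups, *Sesn2* is filled to the left for *Arf*-/--shSCR alone, and the TE panel has no filled point.

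TE of the members gave no call in any of the 3 comparisons, by edgeR or by DESeq2. At an unadjusted p under 0.05 there were 0 members in *Arf*-/--shSCR against WT-shSCR, 1 in WT-shARF against WT-shSCR (*Ddit3*) and 2 in *Arf*-/--shSCR against WT-shARF (*Ddit3* and *Phgdh*), compared with 773 of 11314, 751 of 11289 and 880 of 11632 genes in all. Calls were rare over all genes, at 0.194%, 0.0354% and 0.043% of those tested. The SE of the TE change was between 0.15 and 0.35 on the log2 scale for the 7 members other than *Ddit3*, *Chac1* and *Trib3*, and between 0.57 and 0.98 for those 3.

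The apparatus that senses and answers eIF2 phosphorylation was described through 16 genes of eIF2 kinases, eIF2, eIF2B and phosphatases, all tested. *Impact*, which restrains the amino acid sensor kinase GCN2, fell in both groups. Its footprints were at 121.4 and 133.2 CPM in WT-shSCR, 66.8 and 57.2 CPM in WT-shARF and 61.8 and 79.9 CPM in *Arf*-/--shSCR, a 0.481-fold level in WT-shARF (adjusted p = 1.13e-05) and 0.544-fold in *Arf*-/--shSCR (adjusted p = 5.87e-05). RNA of *Impact* was 0.493-fold (adjusted p = 0.0117) and 0.488-fold (adjusted p = 0.0183). Footprints of *Eif2s1*, which encodes the phosphorylated subunit of eIF2, rose 1.25-fold in WT-shARF (adjusted p = 0.0239) and 1.35-fold in *Arf*-/--shSCR (adjusted p = 0.00211). *Eif2s2*, another eIF2 subunit, rose in *Arf*-/--shSCR RNA and footprints (1.59-fold and 1.41-fold), and *Eif2b2* in WT-shARF footprints (1.55-fold). In all, the list had 1 gene called higher and 1 lower in *Arf*-/--shSCR RNA, 0 and 1 in WT-shARF RNA, and 2 and 1 in the footprints of each. Over all genes 3.94% were called higher and 3.99% lower in *Arf*-/--shSCR RNA, 3.11% and 4.17% in WT-shARF RNA, 9.57% and 8.95% in *Arf*-/--shSCR footprints and 5.63% and 5.5% in WT-shARF footprints, so 0 to 2 of 16 genes is near what all genes show. DESeq2 did not call *Impact* RNA (adjusted p = 0.0871 in *Arf*-/--shSCR and 0.0638 in WT-shARF), *Eif2s2* RNA (0.0848) or *Eif2b2* footprints (0.123). The list's footprint medians were 0.18 and 0.08 on the log2 scale in *Arf*-/--shSCR and WT-shARF.

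Among 9 amino acid transporter genes, of which 8 were tested in WT-shARF RNA, *Slc7a5*, the light chain of the leucine transporter LAT1, rose in both groups and both assays. Its footprints were at 103.6 and 127.4 CPM in WT-shSCR, 181.2 and 185.8 CPM in WT-shARF and 193.5 and 220.7 CPM in *Arf*-/--shSCR, with WT-shSCR below the rest. The increases were 1.58-fold (adjusted p = 0.000533) and 1.75-fold (adjusted p = 2.7e-05), and in RNA 1.52-fold (adjusted p = 0.0273) and 1.54-fold (adjusted p = 0.0409). Both footprint calls held with DESeq2 (adjusted p = 0.00103 and 7.25e-06), and both RNA calls were lost with it (0.105 and 0.127) and in 3 and 4 of 4 fits without 1 library. *Slc1a5*, the glutamine carrier ASCT2, rose in *Arf*-/--shSCR in RNA (1.95-fold, adjusted p = 0.028) and footprints (1.55-fold, adjusted p = 0.0169), and both calls were lost with DESeq2 (adjusted p = 0.126 and 0.0731) and in 3 and 4 of 4 fits without 1 library, 2 of the latter uninformative. Footprints of *Slc7a1*, a carrier of arginine and lysine, rose 1.35-fold in WT-shARF (adjusted p = 0.0195) and were lower in *Arf*-/--shSCR than in WT-shARF (0.698-fold, adjusted p = 0.00953). Against WT-shSCR the list had 2 genes called higher in *Arf*-/--shSCR RNA, 1 in WT-shARF RNA and 2 in the footprints of each, and 0 lower. Over all genes 3.94% were called higher and 3.99% lower in *Arf*-/--shSCR RNA, and 3.11% and 4.17% in WT-shARF RNA. In footprints the shares were 9.57% and 8.95% in *Arf*-/--shSCR and 5.63% and 5.5% in WT-shARF. A list of 8 or 9 genes with 0 called lower is near these shares.

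Of the 12 further enzyme genes of serine, one-carbon and proline metabolism, *Psph* and *Aldh1l2* rose in WT-shARF and were lower in *Arf*-/--shSCR than there. *Psph*, which completes serine synthesis after PHGDH and PSAT1, was at 43.5 and 35.6 CPM of footprints in WT-shSCR, 70.7 and 77.2 CPM in WT-shARF and 30.2 and 42.5 CPM in *Arf*-/--shSCR. It rose in WT-shARF in RNA (2.04-fold, adjusted p = 0.00247) and footprints (1.85-fold, adjusted p = 0.00189), and *Arf*-/--shSCR was below WT-shARF in RNA (0.425-fold, adjusted p = 0.00462) and footprints (0.481-fold, adjusted p = 0.000971). The mitochondrial folate enzyme gene *Aldh1l2* had the same pattern, with footprints 1.75-fold in WT-shARF (adjusted p = 0.00525) and 0.507-fold in *Arf*-/--shSCR relative to WT-shARF (adjusted p = 0.0105). *Cth* footprints rose in WT-shARF (1.81-fold), and *Mthfd1* and *Mthfd1l* footprints in *Arf*-/--shSCR (1.31-fold and 1.41-fold), and these 3 calls were lost with DESeq2 (adjusted p = 0.0579, 0.0702 and 0.115), as was the WT-shARF increase of *Aldh1l2* RNA (0.144). The list thus had 2 of 12 higher in WT-shARF RNA and 3 in its footprints, against 0 and 2 in *Arf*-/--shSCR, and 0 lower in each, beside 3.11% and 5.63% of all genes called higher in WT-shARF and 3.94% and 9.57% in *Arf*-/--shSCR. Its footprint medians were 0.39 in WT-shARF and 0.13 in *Arf*-/--shSCR on the log2 scale.

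Of the 14 stress transcription factors and feedback genes, 13 were tested in RNA. In *Arf*-/--shSCR 0 were called higher in either assay, while *Sesn3* was lower in RNA, and *Nupr1*, *Atf3* and *Sesn3* in footprints. Over all genes 3.94% were called higher and 3.99% lower in that RNA comparison, and 9.57% and 8.95% in footprints. *Nupr1*, a stress-induced chromatin protein, had footprints at 62.7 and 56.5 CPM in WT-shSCR, 44.8 and 43.7 CPM in WT-shARF and 18.4 and 21.9 CPM in *Arf*-/--shSCR. The last were 0.330-fold of WT-shSCR (adjusted p = 8.83e-07) and 0.447-fold of WT-shARF (adjusted p = 0.00128). *Atf3* had 0 and 5 footprint reads in *Arf*-/--shSCR against 8 and 14 in WT-shSCR, and its call (adjusted p = 0.0337) was lost with DESeq2 (adjusted p = 0.114). In WT-shARF *Eif4ebp1*, the translation repressor 4E-BP1, was higher in footprints (1.58-fold, adjusted p = 0.0356; 0.106 with DESeq2). *Cebpb* RNA was higher in *Arf*-/--shSCR than in WT-shARF (1.80-fold, adjusted p = 0.0466; 0.127 with DESeq2).

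The 11 genes of the ATF6 and XBP1 arms, which report protein folding load in the endoplasmic reticulum, gave 0 calls in RNA in any comparison by edgeR, with 0, 2 and 1 of them at an unadjusted p under 0.05 in *Arf*-/--shSCR, in WT-shARF and in the direct comparison, which tested 10 of them. Over all genes 2378 of 10659, 2215 of 10503 and 1740 of 10632 were under it. In footprints *Pdia4*, *Edem1* and *Calr*, for a protein disulfide isomerase, a degradation factor and a chaperone, fell in *Arf*-/--shSCR by 0.27, 0.52 and 0.19 on the log2 scale. Of all genes 8.95% were called lower there. *Edem1* and *Calr* were not called by DESeq2 (adjusted p = 0.0912 and 0.0549). The *Pdia4* and *Edem1* calls there were lost in each of the 4 fits without 1 library and the *Calr* call in 3, the uninformative fits included. *Pdia4* and *Edem1* fell in WT-shARF footprints by 0.36 and 0.63, where 5.5% of all genes were called lower and *Edem1* was not called by DESeq2 (adjusted p = 0.0534), and *Sdf2l1* was lower in *Arf*-/--shSCR than in WT-shARF (0.557-fold, adjusted p = 0.0108). Of the 7 mRNAs known for translation under stress through upstream reading frames, the single call in RNA or footprints was *Atf4* RNA. In TE 0 genes of the 7 lists were called by edgeR in any comparison, and 5 of 71 or 72 tested were at an unadjusted p under 0.05 in each. Of the 59 edgeR calls on list genes that the rule for named genes covers, 37 were made by DESeq2 too. Without 1 library, 120 of their 235 values missed the threshold, the uninformative fits included.

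**Figure D4:**
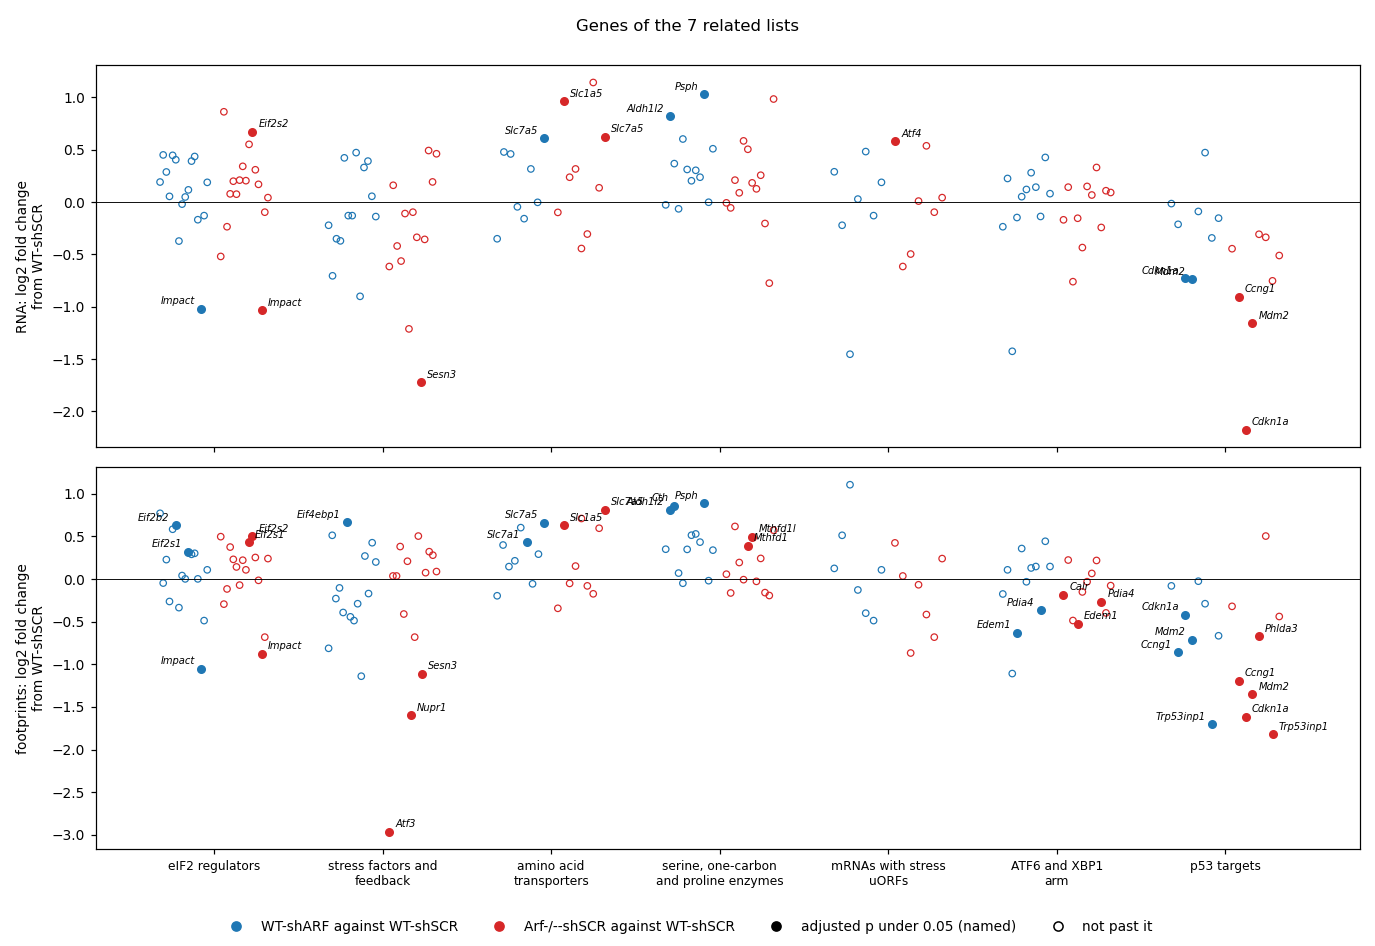
Log2 fold changes from WT-shSCR in RNA (top) and footprints (bottom) for the genes of the 7 related lists, 1 point for each gene and comparison; filled, named points have an adjusted p under 0.05. *Impact* is low and *Slc7a5* high in both groups, and *Nupr1* and *Cdkn1a* are at −1.60 and −1.62 in *Arf*-/--shSCR footprints.

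The members were not a single unit across libraries. Log2 CPM was centred within each assay, and the values of each member were then scaled to a standard deviation of 1. Their mean was taken over the 9 members with at least 10 counts in every library (*Ddit3* was left out). This mean was compared with each of the 9 over the 12 libraries. Pearson's r was 0.949 for *Shmt2*, 0.879 for *Psat1*, 0.809 for *Mthfd2*, 0.731 for *Asns* and 0.661 for *Phgdh*. It was 0.523 for *Atf4*, 0.442 for *Trib3*, 0.424 for *Chac1* and −0.09 for *Sesn2*. The non-member genes most like the mean were *Smarcd1* (r = 0.957), *Numa1* and *Dnajc9* (each 0.904), *Ube2e3* (0.903) and *Nifk* (0.9). These values describe 12 points that share libraries and depth, the members contribute to the mean they are compared with, and no test was made.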

How the data were processed

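RNAseq and ribosome profiling had been made from MEF lysates, with RNase T1 in place of RNase I for the footprints. The authors clipped adapters, split reads by barcode, removed molecular identifiers with UMI-tools and barcodes with cutadapt, discarded rRNA and other noncoding reads with Bowtie2, used TopHat to map the remainder to mm10, and HTSeq to assign reads to coding sequence; what they deposited is the raw count of each gene. Versions, and any removal of duplicates by identifier, are not given in the sources used here. The yeast spike-in was not used, so changes are relative to the library. Reads on no single gene stayed out (5 rows naming no gene; not uniquely aligned 79.22% to 81.38% of records in RNAseq and 46.34% to 52.92% in ribosome profiling, no feature 14.9% to 15.5% and 9.407% to 11.99%).

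The counts were fitted in edgeR 4.0.16 under R 4.3.3 (TMM factors, filterByExpr by group, quasi-likelihood F test), RNA or footprints over 4 libraries and TE over 8, tested on simulated data first, with Benjamini-Hochberg adjustment over all genes. DESeq2 1.42.0, the tool of the study, was an alternative, beside other scaling factors, filters, sample sets, a replicate block, an adjusted p under 0.01 and leaving out each replicate. Groups came from the sample labels; no label says that replicates were separate cultures, so p-values measure the spread between these samples. An exact permutation test of 2 against 2 cannot go below 0.33 and was not used. Coding lengths and positions are from GENCODE M21, promoter windows from RefSeq. Where the paper's methods give wildtype MEFs another strain name (B6129SF2/J), the labels' was kept.

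The members, the related lists and the tests were chosen with earlier results of these data known. Named genes are all members, the called genes of each list up to the 4 with the smallest p per measure and comparison, *Cdkn2a*, and the 5 genes of most similar pattern; markers were fixed lists.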

Additional observations from a re-analysis of the deposited data

Results flagged for a closer look

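Of the members, 3 genes changed differently in *Arf*-/--shSCR and in WT-shARF by the direct test of the difference between the 2 changes. *Sesn2* differed by −1.07 on the log2 scale in RNA and by −0.75 in footprints, lower in *Arf*-/--shSCR, where both libraries were below all wildtype libraries. *Asns* differed by −0.39 in footprints and *Shmt2* by −0.29. Of all genes in the direct comparison, 1.19% were called lower in RNA and 4.3% in footprints. With DESeq2 the *Asns* difference held, and those of *Sesn2* and *Shmt2* missed the threshold. The libraries labelled WT-shARF held more *Cdkn2a* RNA than WT-shSCR, and summed macrophage markers also separated the groups, at 55.7 and 78.7 CPM in *Arf*-/--shSCR RNA against 270.2 and 186.6 CPM in WT-shARF. Summed epithelial and mesothelial markers were at 158.7 and 182.1 CPM in *Arf*-/--shSCR RNA against 56.3 and 70.1 CPM in WT-shARF. Their part in these 4 differences was not tested.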

How the results depend on the processing

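The number of members called was compared over each alternative, and no called change reversed its direction. With other scaling factors (RLE, upper quartile, TMM without ribosomal protein genes), no filter, or at least 10 counts in every library, all 9 counts stayed within 1.5 times. With DESeq2 the *Arf*-/--shSCR RNA count went from 2 to 0, the WT-shARF RNA count from 2 to 1, and the direct comparison from 1 to 0 in RNA and from 3 to 1 in footprints. At an adjusted p under 0.01 the RNA counts were 0, 1 and 0 in the same order, and footprint counts went from 5 to 3 in *Arf*-/--shSCR and from 3 to 0 in the direct comparison. With all 3 conditions in one fit, 4 members passed in *Arf*-/--shSCR RNA (*Atf4*, *Sesn2*, *Psat1* and *Shmt2*), and the direct *Shmt2* footprint call was lost (adjusted p = 0.0555). Samples sharing a replicate number did not deviate together (r from −0.118 to 0.053), so the numbers were not taken as pairs. The replicate block took the direct RNA comparison from 1 to 0 and changed no other called member. A crossed pairing, added after seeing the data because 2 of these r were under −0.1, gave 5 members in *Arf*-/--shSCR RNA and 2 in the direct RNA comparison.

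Leaving out 1 replicate gave 0 to 2 members in *Arf*-/--shSCR RNA, 0 to 3 in WT-shARF RNA, 0 to 2 in the direct RNA comparison, 0 to 2 in *Arf*-/--shSCR footprints, 3 to 5 in WT-shARF footprints and 0 to 3 in the direct footprint comparison. The values of 0 in *Arf*-/--shSCR footprints and in both direct comparisons include the uninformative fits, whose counts over all genes are given above. These fits called few or no genes in all, and say little or nothing about the members. A lone library is then assumed to vary like the other group. TE counts were 0 under every alternative run. Of the 73 member changes that were not called, 31 changed sign under at least 1 alternative and 8 passed under at least 1, while 42 kept their sign throughout. DESeq2 did not make 22 of the 59 calls on list genes. Depth limits *Ddit3*, *Chac1* and *Trib3* most.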
